A study of Mus musculus with 16 samples.

Results

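The genes described here encode the protocadherins, the numbered cadherins, the neurexins, the neuroligins, the Lrrtm proteins and the Cntnap proteins, which join neurons to each other and to glia. They were chosen by symbol from the protein-coding genes of the RefSeq annotation of mm10, and numbered 109 of 21887 on the assembled chromosomes. Of these, 57 are the clustered protocadherins (14 Pcdha, 22 Pcdhb and 21 Pcdhg genes), and 52 stand outside the clusters (12 unclustered Pcdh, 23 Cdh, 7 Cntnap, 4 Lrrtm, 3 Nrxn and 3 Nlgn genes). Genes without any region were counted as members too.

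In the study, beta-hydroxybutyrylation of histone H3 at lysine 9 was mapped by immunoprecipitation of sonicated chromatin and sequencing, in homogenised occipital cortex from C57BL/6J mice aged 35 postnatal days. The mark carries an acyl group made from beta-hydroxybutyrate, a ketone body that rises in fasting. One group of mice was fasted for 48 h and the other was fed ad libitum, with 4 immunoprecipitated and 4 input libraries in each, 16 in all. The authors deposited 8404 regions with more of the mark in fasted mice and 1 region with more in fed mice, and the fed region touched no member. Each region carries a log likelihood ratio (log-LR), the authors' own score for the difference, and no value per library. Sequencing depth is therefore unknown here, and neither a fold change nor a spread between mice can be given. Cortex homogenate holds many cell types, so more of the mark per cell and more cells that carry it cannot be told apart.

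Cadherins and protocadherins are membrane proteins whose extracellular repeats bind calcium and pair across the gap between cells. Classical cadherins anchor to actin through catenins. Clustered protocadherins are expressed in different combinations in different neurons, by choice among many variable first exons, and give the cell surface an identity that neurites use to recognise their own branches. Neurexins on the presynaptic side bind neuroligins and Lrrtm proteins on the postsynaptic side, and Cntnap proteins are neurexin relatives found along axons and at synapses.

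Fasting-enriched regions were seldom at the ends of these genes and lay mostly far inside the long ones. A region within 1 kb of either end was found for 2 of the 52 unclustered members (3.85%), Cdh2 and Pcdh1, and for 1 of the 57 clustered members (1.75%), Pcdhac2, against 11.9% of all protein-coding genes. Regions in the gene body, that is, inside the gene and outside the 1 kb windows at its ends, were found for 17 unclustered members (32.7%) and 13 clustered members (22.8%), against 7.24% of all protein-coding genes. All 13 clustered members hold the same region, because their annotated spans overlap, so their share does not count separate regions. In all, 31 members held a region and 78 held none. These shares are descriptions of an annotation, without a test, and the body share rises with gene length.

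The unclustered members are long, with a median annotated length of 150.6 kb against 17.2 kb for all protein-coding genes, so the counts were also read by length class. Among genes under 50 kb, 1 of 15 members and 10.5% of all genes had a region near an end. From 50 to 200 kb it was 0 of 16 against 17.2%, and over 200 kb 1 of 21 (4.76%) against 14.7%. Members were thus below the background at their ends in each class, on counts of 0 or 1 gene. In the body the members' share was above the background in each class, on only 1 gene under 50 kb and 3 genes from 50 to 200 kb. A body region was found for 1 of 15 members under 50 kb against 3.13% of genes, for 3 of 16 (18.8%) from 50 to 200 kb against 15.4%, and for 13 of 21 (61.9%) over 200 kb against 45.1%. Even within the longest class the members were longer, with a median of 791.3 kb against 325.2 kb. Counted per length, unclustered members held 31 body regions in 19.8 Mb of gene, or 1.57 per Mb (95% counting interval 1.06 to 2.22), and all protein-coding genes held 2.07 per Mb. For genes over 200 kb alone these values were 1.42 per Mb (0.918 to 2.09) and 1.85 per Mb. The values for all genes lie within the members' intervals here. They also do with regions within 1 kb merged, where members held 1.36 per Mb (0.898 to 1.98) and all genes 1.82. They do not with a log-LR of at least 5, where members held 0.454 per Mb (0.208 to 0.863) and all genes 1.02. Nor do they without chromosome 18, a setting chosen after seeing the data, where members held 1.38 per Mb (0.911 to 2.01) and all genes 2.06. The higher share of members with a body region did not come with a higher density of regions in these settings.

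**Figure D1:**
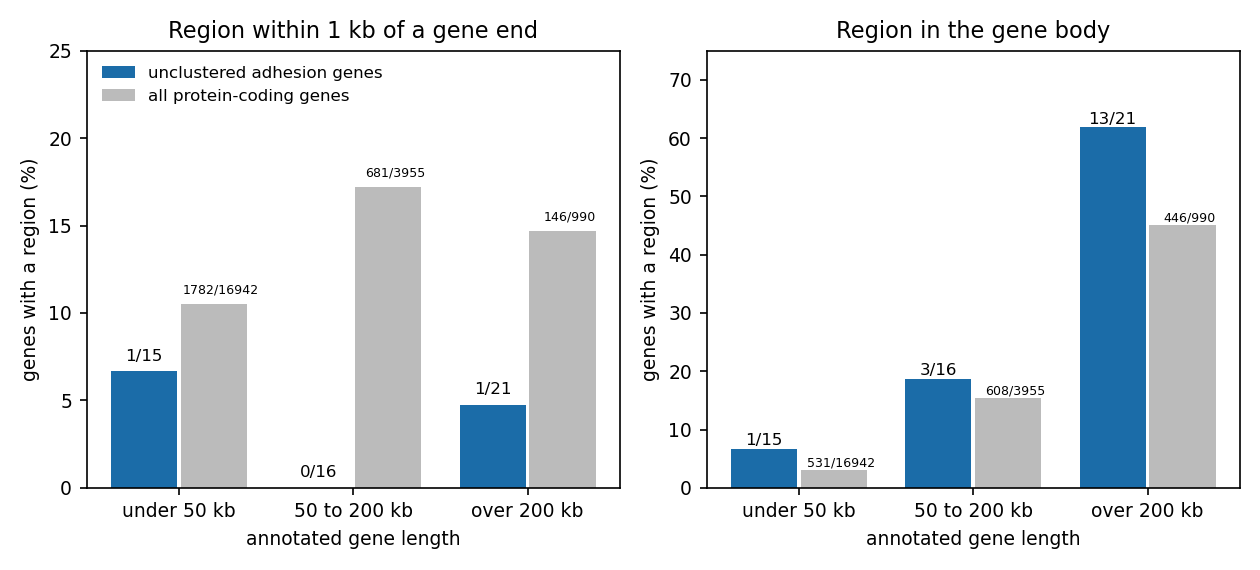
Share of genes (percent) with a fasting-enriched region within 1 kb of an end (left) and in the gene body (right), by annotated length, for the 52 unclustered adhesion genes (blue) and all protein-coding genes (grey), with the number of genes above each bar. Members lie below the grey bars at the ends and above them in the body, where the longest class reaches 61.9% against 45.1%.

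Gene starts were told from far ends where RefSeq's promoter table lists the gene, which was the case for 31 of the 52 unclustered members and for 17492 protein-coding genes. Over those genes, 11.5% had a region within 1 kb of the start side of the gene and 0.863% within 1 kb of the far side. Among the 31 members none had a region at either side. Cdh2 and Pcdh1, the only unclustered members with a region within 1 kb of an end, are not listed in that table. They are therefore not among the 31, and the absence depends on which genes are listed. Somewhat further in, the picture differed. Of the 29 members at least 10 kb long, 4 (13.8%) had a region from 1 to 5 kb inside the start side, against 3.39% of all such genes, and none had one from 1 to 5 kb inside the far side, against 0.578%. At the start side itself, within 1 kb, these same 29 had none, against 14.0% of all such genes. This inner zone was chosen after the regions had been seen. The 4 genes were Pcdh7, Pcdh10, Pcdh15 and Pcdh17, all unclustered protocadherins. Sides were measured from the outer ends of the annotated gene, and the listed start of Pcdh15 lies 721.5 kb further in than its region. Without regard to strand, 6 of the 49 unclustered members of at least 10 kb (12.2%) had a region 1 to 5 kb inside an end, the others being Cdh2 and Pcdh1, against 3.87% of all genes of that length.

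For 4 unclustered protocadherins the listed start coincides with the outer end of the annotated gene, and their upstream sequences are shown because the distances below are counted from these starts. Each is the 250 bases before the start in RefSeq on GRCm38.p6, the build called mm10, written from 5′ to 3′, with the motif GGGCGG or its reverse complement in capitals.
Pcdh10, chr3:45378148-45378397, plus strand: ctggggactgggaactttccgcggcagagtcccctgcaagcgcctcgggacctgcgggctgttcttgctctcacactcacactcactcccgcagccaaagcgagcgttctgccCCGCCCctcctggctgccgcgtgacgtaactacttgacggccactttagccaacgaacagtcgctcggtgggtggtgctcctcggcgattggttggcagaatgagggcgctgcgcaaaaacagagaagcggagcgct
Pcdh17, chr14:84443313-84443562, plus strand: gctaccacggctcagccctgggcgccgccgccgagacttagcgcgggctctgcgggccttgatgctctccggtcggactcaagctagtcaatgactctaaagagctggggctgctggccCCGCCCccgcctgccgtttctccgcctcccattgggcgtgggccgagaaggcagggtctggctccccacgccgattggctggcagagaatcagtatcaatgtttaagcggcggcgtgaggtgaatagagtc
Pcdh8, chr14:79771313-79771562, minus strand: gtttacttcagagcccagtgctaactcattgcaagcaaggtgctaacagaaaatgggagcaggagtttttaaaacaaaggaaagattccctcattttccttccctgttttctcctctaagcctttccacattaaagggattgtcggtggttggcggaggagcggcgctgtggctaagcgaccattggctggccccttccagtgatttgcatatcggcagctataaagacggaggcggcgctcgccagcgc
Pcdh20, chr14:88471397-88471646, minus strand: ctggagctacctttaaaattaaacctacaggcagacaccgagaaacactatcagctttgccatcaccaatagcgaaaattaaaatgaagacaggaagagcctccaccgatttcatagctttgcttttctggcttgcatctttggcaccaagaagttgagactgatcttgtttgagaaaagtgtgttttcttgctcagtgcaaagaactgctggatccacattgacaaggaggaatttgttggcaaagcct

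Pcdh10 and Pcdh17 had a region downstream of these starts and Pcdh8 and Pcdh20 held none. The nearest regions of the latter were 63516 and 549263 bp from the nearer end of the gene. The upstream sequence of Pcdh10 holds 22 CG pairs and that of Pcdh17 holds 21, while Pcdh8 has 11 and Pcdh20 has 3, and the median over 21263 promoters of protein-coding genes was 10. GGGCGG, the GC box, was found on either strand once in Pcdh10 and once in Pcdh17, in 12 of the 39 listed promoters of members (30.8%), and in 42.6% of all those promoters. CCAAT was found on either strand in all of the sequences shown, in 18 of the 39 promoters of members (46.2%), and in 35.4% of all promoters. Some genes count more than once, since the 39 promoters belong to 31 members. TATAAA occurred in Pcdh8 and in 11.6% of promoters, and TGACGTCA and CACGTG were in none of the sequences shown. No match overlapped another in the sequences shown. Over the other listed unclustered protocadherins, the number of CG pairs and the presence of a region did not go together in every gene. Pcdh7 and Pcdh15, with a region 1 to 5 kb inside the start side, had 7 and 6 before their listed starts, while Pcdh18 and Pcdh19, without a region, had 23 and 16. The listed start of Pcdh15 lies 721.5 kb from that region, so its number does not describe the sequence near the region. In the other direction, Pcdh9, with 3 body regions, had 18 CG pairs before each of its listed starts. A match of letters is a description of the sequence and not a binding site.

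Among the unclustered protocadherins, which act in sorting of neurons and axons, 6 of 12 held a region at an end or in the body, against 18.1% of all protein-coding genes. By length, it was 1 of 5 under 50 kb against 13.2% of all such genes, 2 of 3 from 50 to 200 kb against 30.4%, and 3 of 4 over 200 kb against 53.2%, counts too small to read the family apart from its length. Pcdh1 had 4, all gathered near the end of the gene at its higher coordinate on chromosome 18. They lay at 38211750 to 38211937 (log-LR 5.32, 111 bp inside that end), 38211294 to 38211643 (5.78, 405 bp inside), 38209878 to 38210080 (3.58, 1.97 kb inside) and 38209680 to 38209809 (4.18, 2.24 kb inside). The first pair counts as regions at an end and the other pair as body regions, and the gap within the end pair is 106 bp and that within the body pair 68 bp. Pcdh10, which takes part in axon growth and synapse elimination, had a pair of regions on chromosome 3, 190 bp apart, at 45380858 to 45381029 (log-LR 4.23) and 45381220 to 45381453 (5.25). They began 2.46 and 2.82 kb downstream of the start shown above.

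Pcdh17 had a single region, at 84445804 to 84446230 on chromosome 14, with a width of 427 bp and a log-LR of 3.53, which began 2.24 kb downstream of its start. The single region of Pcdh7, at 57719265 to 57719405 on chromosome 5, had a log-LR of 4.12 and lay 3.12 kb inside the annotated gene and 1.18 kb downstream of the listed start. Pcdh15, a component of the tip links of hair cells in the inner ear, had 4 regions over a gene of 1554 kb. One of them, at 73100067 to 73100325 on chromosome 10, lay 3.79 kb inside the outer end and had a log-LR of 9.85, the highest of any member. Among body regions of all protein-coding genes, 118 (5.53%) scored as high or higher. RefSeq's promoter table lists a start for Pcdh15 721.5 kb further in, so this region is near the outer end only. The other regions of Pcdh15 scored from 3.57 to 3.90 and lay 341.4 to 486.3 kb inside the gene. Pcdh9, a gene of 879.1 kb, had 3 regions, with a log-LR of 5.64, 3.78 and 3.94 from the lower to the higher coordinate. The last pair was separated by 108 bp, and all 3 lay over 35 kb from either end. Pcdh8, Pcdh11x, Pcdh12, Pcdh18, Pcdh19 and Pcdh20 held none.

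Of the numbered cadherins 3 of 23 held a region at an end or in the body (13.0%), against 18.1% of all protein-coding genes. All 3 are among the 8 that are over 200 kb long, a class in which 53.2% of all genes held one. Cdh2 encodes N-cadherin, the classical cadherin of neurons and of the synaptic junction. It had a region 207 bp inside its higher-coordinate end on chromosome 18, at 16808903 to 16809039 (log-LR 6.42), another 2.15 kb inside that end, at 16806962 to 16807094 (5.44), and one 146.9 kb from it, at 16662165 to 16662308 (4.55). Cdh2 and Pcdh1 were thus alike in having one or more regions within 500 bp of the higher-coordinate end and more at about 2 kb from it. Cdh18 had a pair of body regions on chromosome 15 (log-LR 4.26 and 6.03), 56708 bp apart. Cdh13, which encodes a cadherin held to the membrane by a lipid anchor, had a pair on chromosome 8 (3.68 and 5.33) that were 164683 bp apart. The other 20 had none, among them Cdh1 (E-cadherin of epithelia), Cdh5 (of endothelium), Cdh23 (the tip-link partner of Pcdh15) and the long genes Cdh12 (1150 kb, nearest region 125.5 kb away) and Cdh4 (457.0 kb, nearest region 126.1 kb away).

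**Figure D2:**
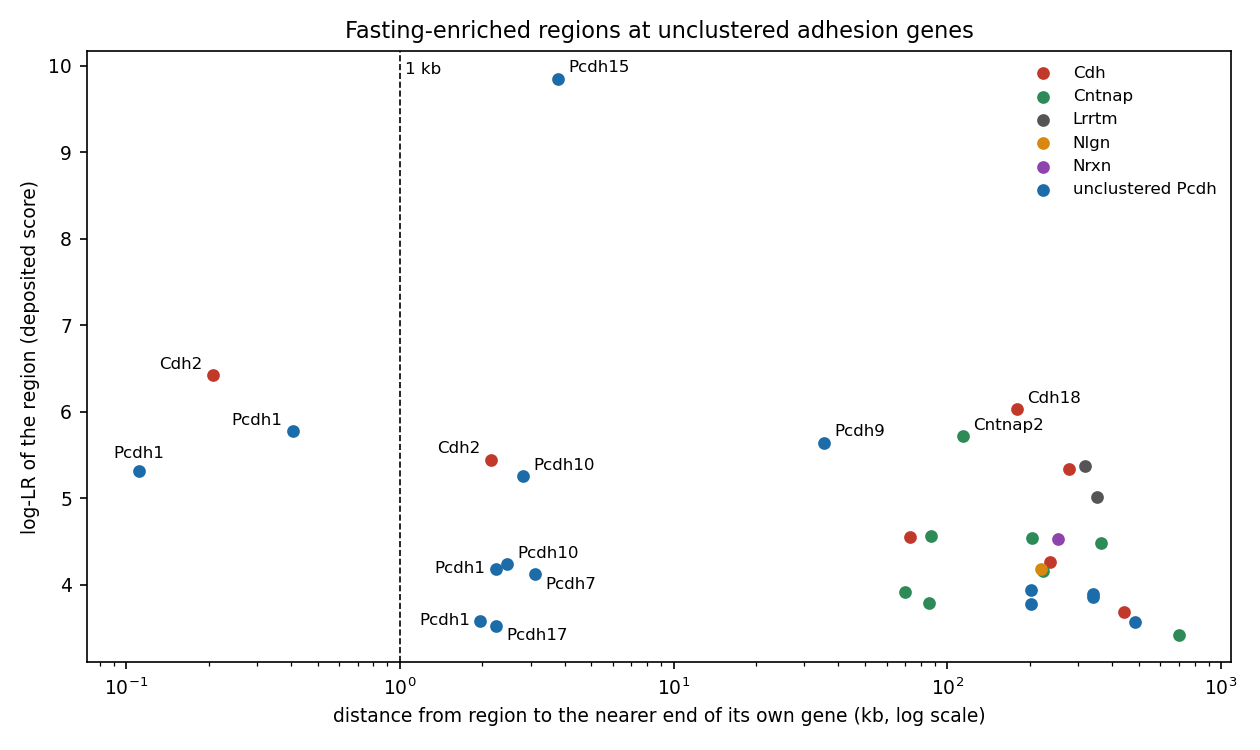
Log-LR of each of the 34 fasting-enriched regions at unclustered adhesion genes (y axis) against its distance from the nearer end of its own gene in kb (x axis, log scale), coloured by family. Only regions of Pcdh1 and Cdh2 lie left of the dashed line at 1 kb; a group from 1.97 to 3.79 kb belongs to Pcdh1, Pcdh7, Pcdh10, Pcdh15, Pcdh17 and Cdh2, and the rest lie beyond 35 kb.

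The neurexin, neuroligin and Lrrtm genes, which build the trans-synaptic bridge, held a region in 1 gene each, of 3, 3 and 4 genes, against 18.1% of all protein-coding genes. The genes that held one, Nrxn3, Nlgn1 and Lrrtm4, are all over 200 kb long, a class in which 53.2% of all genes held one. Nrxn3 (1612 kb) had 1 at 90081492 to 90081810 on chromosome 12, with a log-LR of 4.52, 253.1 kb from the far end of the gene and 269.0 kb downstream of the nearest listed start. Nrxn2 had none. Nlgn1, the neuroligin of excitatory synapses, had 1 region at 26112622 to 26112768 on chromosome 3, with a log-LR of 4.18, 41.2 kb downstream of the nearest of its listed starts. Nlgn2, the neuroligin of inhibitory synapses, had none in the gene, and its nearest region was 8.55 kb away with a log-LR of 4.80. Nlgn3 is on chromosome X, where Pcdh11x and Pcdh19 also lie, and none of these 3 genes held a region. Lrrtm4, a postsynaptic protein of excitatory synapses, had a pair on chromosome 6 (log-LR 5.01 and 5.38) 33229 bp apart in the middle of a 791.3 kb gene. Lrrtm1, Lrrtm2 and Lrrtm3 had none.

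Cntnap genes held body regions in 5 of 7 and none at an end. Over 200 kb it was 4 of 5, where 45.1% of all genes had a body region, and the other was Cntnap3, in the class from 50 to 200 kb with 15.4%. Cntnap2 encodes an axonal protein that clusters potassium channels beside the node of Ranvier, and at 2241 kb its gene is the longest member. Its 3 regions on chromosome 6 scored 5.72, 4.48 and 3.42 and lay 114.0, 364.9 and 1537 kb from the start side. The first, at 45174058 to 45174696, was 639 bp wide, against a median of 205 bp in the whole list, and the last had the lowest score of any member. Cntnap5a had 2 regions (4.53 and 4.15), and Cntnap3 (3.92), Cntnap4 (3.78) and Cntnap5c (4.56) had 1 each. Cntnap1, which encodes the axonal protein of the paranodal junction, had none in its 16.1 kb. Cntnap5b, at 718.4 kb, had none either, with the nearest region 812.0 kb away.

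**Figure D3:**
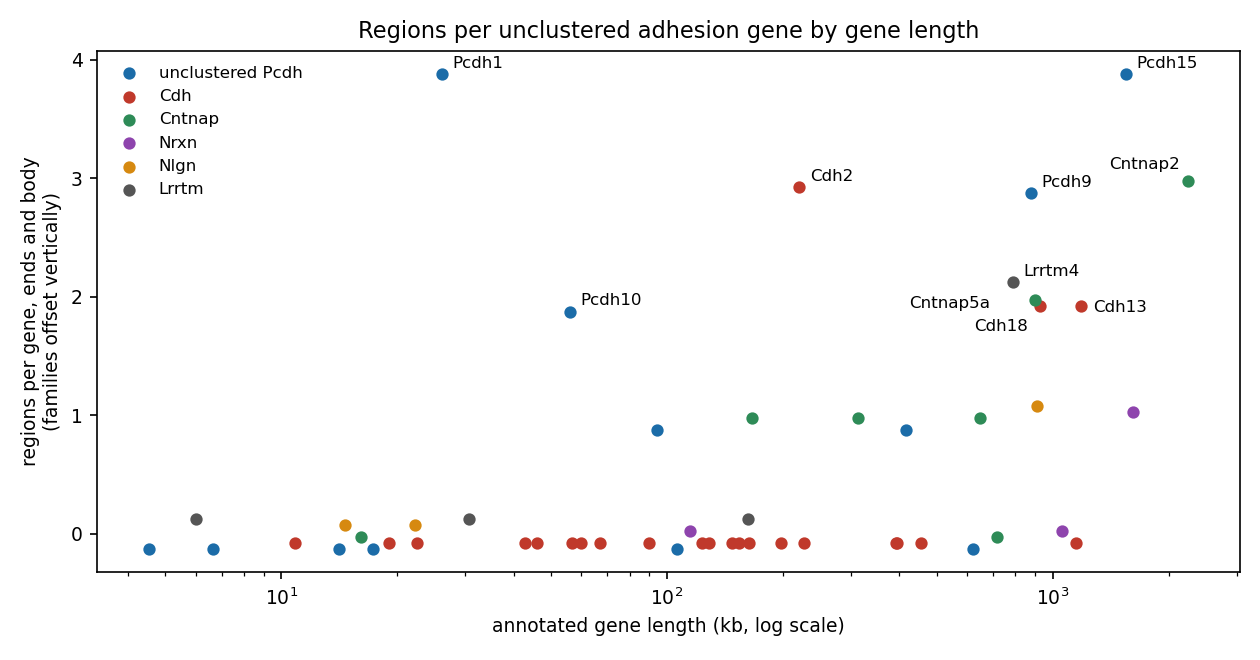
Number of fasting-enriched regions per gene, at ends and in the body (y axis, families offset vertically for visibility), against annotated gene length in kb (x axis, log scale), for the 52 unclustered adhesion genes. Most genes with 2 or more regions are over 500 kb long; Pcdh1, Pcdh10 and Cdh2 are the exceptions.

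Number of regions went with length in this set, with a median length of 791.3 kb for the 17 unclustered members with a region and 89.6 kb for the 35 without. Of the 17, 7 had 1 region, 5 had 2, 3 had 3 and 2 had 4. Well below the median length of the 17, Pcdh1 (26.1 kb) had 4 regions and Pcdh10 (56.2 kb) had 2, in pairs 68 to 190 bp apart. For the members without a region, the nearest one lay a median of 110.4 kb away, from 8.55 kb for Nlgn2 to 812.0 kb for Cntnap5b. Of the 34 regions at unclustered members, 23 lay over 10 kb from both ends of the gene and 11 within 5 kb of an end. The threshold of 1 kb fell in a gap, since the region just inside it was that of Pcdh1 at 405 bp and the one just outside was 1.44 kb from the lower end of Pcdha8. None of the 34 overlapped another annotated gene, and none of the regions at any member lay in a dense array (at least 5 regions in a row, each within 20 kb of the next).

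Scores of members' regions were modest. The 31 body regions of unclustered members had a median log-LR of 4.23, with quartiles of 3.88 and 5.13, against a median of 4.97 and quartiles of 4.16 and 6.31 for the 2135 body regions of all protein-coding genes. The 3 regions at ends scored 5.32, 5.78 and 6.42, against a median of 4.94 for 2474 regions at the ends of all protein-coding genes. A log-LR of at least 5 was reached by 12 of the 34 regions (35.3%) and by 48.8% of the whole list. With that limit, 8 unclustered members had a body region in place of 17, against 4.13% of all genes. Both end counts stayed as they were, while the share of all genes with a region at an end fell from 11.9% to 5.90%. The median of the members' body regions was thus below that of all body regions, and their end regions were above the median of all end regions.

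**Figure D4:**
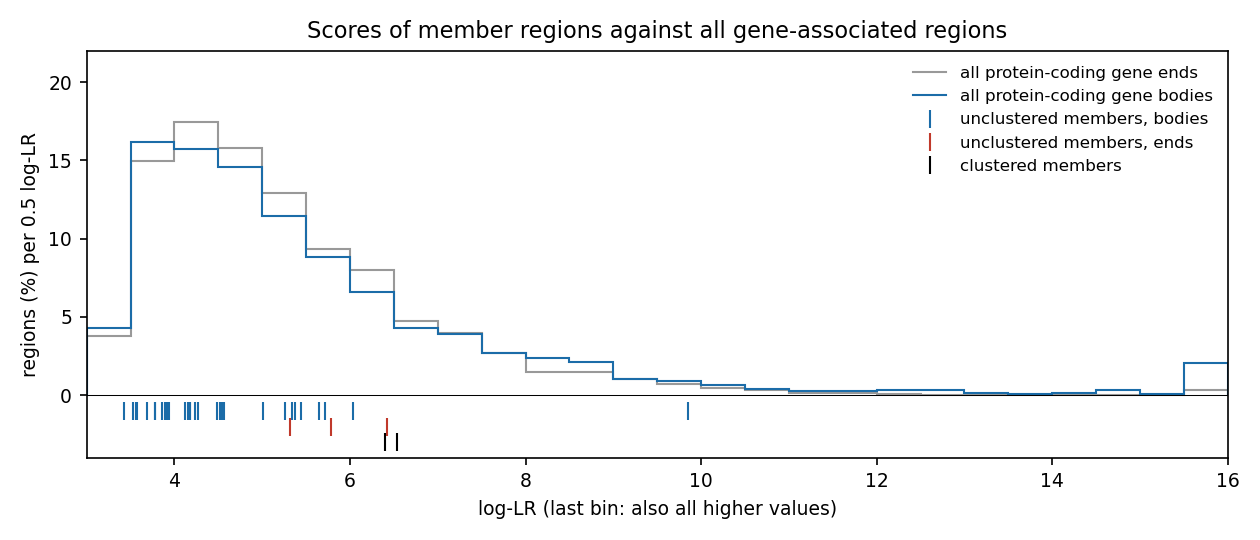
Distribution of log-LR (x axis; the last bin also holds all higher values) for regions at the ends (grey line) and in the bodies (blue line) of all protein-coding genes, as percent of regions per bin. Ticks below mark each region of the unclustered members in bodies (blue) and at ends (red) and the pair at clustered members (black); most blue ticks lie under 5 and the highest is 9.85.

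The clustered protocadherins lie side by side on chromosome 18, in the order Pcdha, Pcdhb and Pcdhg. Pcdha and Pcdhg genes have variable first exons joined to constant exons that all genes of the cluster use, so their annotated spans overlap and 1 region can count for many genes. The whole clustered set held only 2 distinct regions, and both were in Pcdha. The first, at 36993904 to 36994034, was 131 bp wide with a log-LR of 6.40. It lay 1.44 kb inside the lower-coordinate end of Pcdha8 and 3.85 kb below that of Pcdha9, and counts as a body region for the 8 genes from Pcdha1 to Pcdha8. The second, at 37143776 to 37144460, was 685 bp wide with a log-LR of 6.53, and only 117 regions of the whole list (1.39%) were as wide or wider. It began 98 bp inside the lower-coordinate end of Pcdhac2, one of the last variable genes of the cluster, and also lies within the spans of the other 13 Pcdha genes.

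All 14 Pcdha genes therefore held a region, but the count of 13 with a body region rests on the second of these regions and is not a count of separate events. Both regions also lie within Gm37013, Gm38666 and Gm38667, protein-coding gene models that span the cluster. The 22 Pcdhb genes, each a few kb long over a stretch of 256.4 kb, held none, and their nearest region was 109.2 to 226.7 kb away. The 21 Pcdhg genes, over 180.1 kb, held none either, with the nearest region 30.8 to 93.0 kb away. From the Pcdhac2 region to the next region at higher coordinates the gap was 486.1 kb. Among gaps between neighbouring regions on assembled chromosomes, 22.2% were as long or longer, and the median was 168.6 kb, so a stretch of this length without a region is common in the list.

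**Figure D5:**
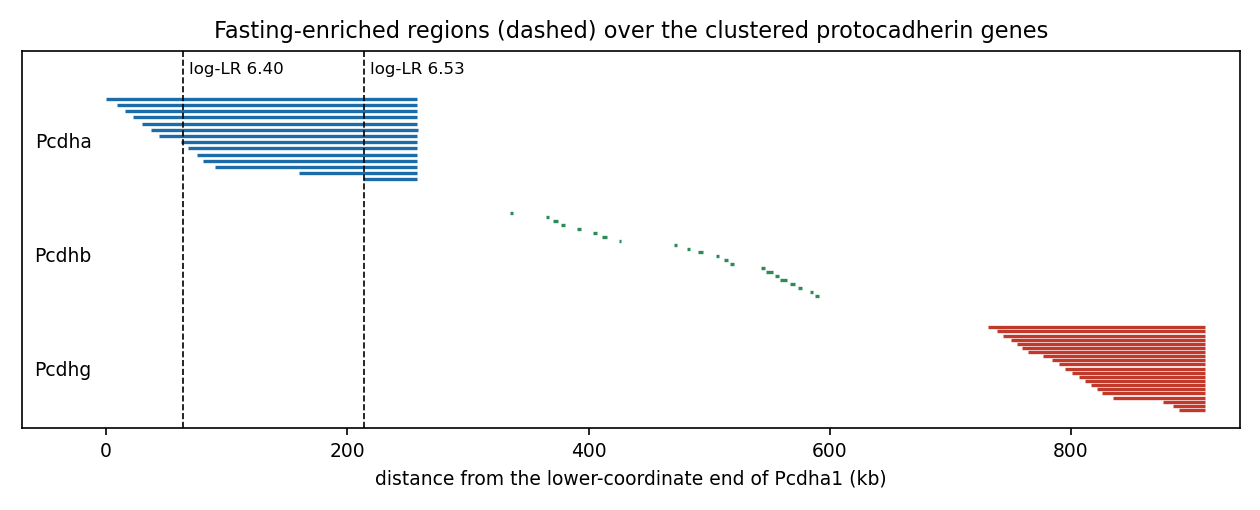
Annotated spans of the 14 Pcdha (blue), 22 Pcdhb (green) and 21 Pcdhg (red) genes in kb from the lower-coordinate end of Pcdha1, 1 line per gene, with the fasting-enriched regions as dashed lines. Both regions, with log-LR 6.40 and 6.53, cross Pcdha, and none crosses Pcdhb or Pcdhg.

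All 3 members with a region at an end (Cdh2, Pcdh1 and Pcdhac2) are on chromosome 18. It holds 61 of the 109 members, among them all 57 clustered ones. There, 13.1% of protein-coding genes had one at an end. Off it, 0 of 48 members did, against 11.9% of protein-coding genes there. Among the 4 unclustered members on chromosome 18 it was Cdh2 and Pcdh1 that did, while Pcdh12 and Lrrtm2 had none. This split was seen in the data first, and no test was made of it.

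Genes that work with these proteins were counted from 5 lists. Of 9 catenin genes, 1 had a region at an end, Ctnnd2 (delta-catenin of neurons, log-LR 9.21, 650 bp from the start side). Of 15 atypical and seven-pass cadherins it was Celsr2 alone (6.65), a planar polarity receptor. Other trans-synaptic adhesion genes had one in 4 of 44 (9.09%), Tenm2 (6.90), Cadm1 (4.996), Ntng2 (4.24) and Adgrl2 (3.92). Tenm2 and Adgrl2 encode a teneurin and a latrophilin, which bind across the synapse. Among 19 partners of neurexins, neuroligins and Cntnap proteins, Cntn2 (9.24), the contactin that pairs with Cntnap2 on axons, and Mdga2 (4.44), which binds neuroligins, had one. These shares, from 6.67% to 11.1%, were near or below the 11.9% of all protein-coding genes. Regulators and signalling partners of the clustered protocadherins had one in 6 of 19 (31.6%). They were Smc3 (6.46), a cohesin subunit, Ctcf (5.20), the DNA-binding protein that loops protocadherin promoters to enhancers, Ptk2b (5.02), a kinase that protocadherins inhibit, and Nckap1 (6.01), Cyfip1 (5.03) and Wasf1 (3.56), components of the actin-regulating WAVE complex. The region of Wasf1 was shared with its neighbour Cdc40. The lists were chosen with earlier results of these data known, and the share of 31.6% was not tested. By length class, 10.5% to 17.2% of all genes had a region at an end. Body regions were held by 26 of the 106 genes of the 5 lists (24.5%, against 7.24% of all genes). By length, it was 2 of 40 genes under 50 kb (5%, against 3.13% of all such genes). From 50 to 200 kb it was 7 of 29 (24.1%, against 15.4%) and over 200 kb 17 of 37 (45.9%, against 45.1%). Of 28 marker genes of brain cell types, blood and liver, 1 had a region at an end (3.57%, against 11.9% of all genes). It was the myelin gene Mbp, with 2 such regions. Another of the 28, a neuron marker, held a body region, against 7.24% of all genes. The lists hold differences and not levels of the mark, so these markers do not test the labelled tissue.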

How the data were processed

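The authors profiled H3K9 beta-hydroxybutyrylation in 16 libraries and deposited 2 lists of differing regions with their positions. Each has a log-LR, per the file headers, which serves here as a score. How the authors scaled depth, pooled libraries and set a limit, and the base of the log, is not given in the sources at hand. The submitters' processing notes name Bowtie2, MACS2 and mm10. No file gives a value per library, so no test between mice was made, and unequal depth or yield of the groups would change how many regions are listed.

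Starts were read as counted from 0 (smallest width 120 bp) and are given from 1. Regions were placed on the protein-coding genes of RefSeq's GRCm38.p6 table by an overlap of at least 1 bp with 1 kb on either side of a gene end, and otherwise with the gene body. Strand and upstream sequence came from RefSeq's promoter table. Placement was tested on simulated data. Members and lists were chosen with earlier results of these data known. All members with a region at an end are named; of those with body regions, the 10 with most regions and the 10 of highest score; of those without, the 5 longest; all Nrxn, Nlgn and Lrrtm genes; and up to 4 genes of each list by score. A gene that this rule takes is not reported here. Other members and list genes, and the comparison of chromosome 18, were named after their values were seen. Alternatives varied the window (500 bp, 3 kb, 5 kb), the overlap rule, the score limit, arrays, chromosomes and merging. Density intervals are 95% exact Poisson intervals and cover counting error only. The tools were scipy 1.17.1, pandas 2.3.3, numpy 2.4.6, matplotlib 3.10.9 and Python 3.11.15.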

Additional observations from a re-analysis of the deposited data

How the results depend on the processing

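The number of unclustered members with a region at an end was 2 at 500 bp and 1 kb, by region centre, at a log-LR of at least 5, outside dense arrays, on autosomes and with regions within 1 kb merged. The share of all genes was 5.90% at that score limit, against 11.9% without it, so the members' shortfall was smaller there. The unclustered count became 4 with a window of 3 kb (14.7% of all genes), 6 with 5 kb (16.3%) and 0 without chromosome 18 (11.9%). The wider windows take in the regions 2 to 4 kb inside the genes. The clustered count of 1 became 2 at 3 kb and 3 at 5 kb, and has no value without chromosome 18. Body counts of 17 unclustered and 13 clustered members ranged from 13 to 17 and from 13 to 14, except for 8 unclustered members at a log-LR of at least 5. That limit also lowered the density to 0.454 regions per Mb for members and 1.02 for all genes, since fewer regions are counted; otherwise it was 1.36 to 1.63 for members. The median log-LR of the 34 regions ranged from 4.23 to 5.54, the highest at that limit. The window of 5 kb and the omission of chromosome 18 were chosen after seeing the data. No paired analysis was possible because neither file gives values for single libraries, and results without each replicate could not be computed either.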
